A study of Mus musculus with 8 samples.

Results

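The genes described here encode the subunits of hypoxia-inducible factor (HIF), read in mouse embryonic fibroblasts on 8 Affymetrix arrays. They are Hif1a, Epas1 and Hif3a, which encode the alpha subunits HIF-1 alpha, HIF-2 alpha and HIF-3 alpha, and Arnt and Arnt2, which encode the beta subunits. All probe sets assigned to these genes alone by the platform annotation were taken, which gave 20 of the 45037 probe sets other than controls, and 5 of the 18193 genes named on the array. Hif3a had 6 of these probe sets, Arnt 5, Hif1a 4, Arnt2 3 and Epas1 2. The cells were isolated at embryonic day 14.5 from the C57BL6/J strain. The 4 groups were Hif-p4h-1 knockout (KO) cells in hypoxia, wild-type (WT) cells in hypoxia, KO cells in normoxia and WT cells in normoxia. The KO cells came from Hif-p4h-1-/- and the WT cells from Hif-p4h-1+/+ mice, with no other allele or agent named. Each group had 2 arrays, of which the titles mark 1 as belonging to a second set. No source used here gives the oxygen level, the length of hypoxia, or whether the 2 arrays per group stem from different embryos or cultures. The p-values therefore measure only how far these arrays spread, and that spread may be technical.

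HIF is a pair of an oxygen-regulated alpha subunit and a stable beta subunit that together bind DNA. In the presence of oxygen, prolyl hydroxylases, among them Hif-p4h-1, the product of Egln2, mark the alpha subunit for ubiquitination by the von Hippel-Lindau protein and for degradation. This control acts on the protein, and an expression array reads the mRNA only. HIF-1 alpha is present in most cell types, HIF-2 alpha is best known from endothelial and other specialised cells, and HIF-3 alpha occurs in several isoforms, some of which oppose the others. ARNT is the general partner of the alpha subunits and of the aryl hydrocarbon receptor, and ARNT2 is a close relative best known from the nervous system.

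HIF binds DNA at a short core sequence, so the start regions of the subunit genes are shown for this core before their mRNA values. Windows from 250 bases before to 50 bases after the start, from RefSeq on GRCm38.p6, were found for 4 of the 5 genes. The letters ACGTG and GCGTG were searched on both strands, so they also appear as CACGT and CACGC, and matches are in capitals. Hif1a lies on the plus strand at chr12:73907617-73907916, Arnt on the plus strand at chr3:95434140-95434439 and Arnt2 on the minus strand at chr7:84409989-84410288. Each is printed along the gene's own strand.
Hif1a: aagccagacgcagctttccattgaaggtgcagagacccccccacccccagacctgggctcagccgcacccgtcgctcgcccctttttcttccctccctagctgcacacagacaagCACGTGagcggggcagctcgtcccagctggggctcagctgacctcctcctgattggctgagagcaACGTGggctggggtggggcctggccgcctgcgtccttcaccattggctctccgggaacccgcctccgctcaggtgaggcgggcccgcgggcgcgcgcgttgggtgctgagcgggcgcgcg
Arnt: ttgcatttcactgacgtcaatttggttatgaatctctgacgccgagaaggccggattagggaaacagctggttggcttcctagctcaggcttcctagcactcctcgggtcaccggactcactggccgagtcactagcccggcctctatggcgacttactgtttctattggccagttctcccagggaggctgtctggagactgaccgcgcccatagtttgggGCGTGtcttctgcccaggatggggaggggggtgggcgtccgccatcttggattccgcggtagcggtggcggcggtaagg
Arnt2: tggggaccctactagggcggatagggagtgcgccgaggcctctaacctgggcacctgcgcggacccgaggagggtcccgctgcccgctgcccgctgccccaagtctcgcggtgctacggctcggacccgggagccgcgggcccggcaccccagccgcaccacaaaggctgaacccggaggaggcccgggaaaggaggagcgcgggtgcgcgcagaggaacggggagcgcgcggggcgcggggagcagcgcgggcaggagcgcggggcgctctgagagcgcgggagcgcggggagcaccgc
The Hif1a window held 3 matches, all to ACGTG, of which 2 overlap in a palindrome read on both strands. The Arnt window held 1 match to GCGTG and the Arnt2 window 0. The Hif3a window, on the minus strand at chr7:17062378-17062677, held 2 matches to GCGTG. Epas1 was the gene with no window. Either core was present in 43.8% of all 32851 windows, so a match in such a window is common. A match describes letters, not a bound site.

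Values below are log2 expression values, on which a difference of 1 is a doubling of signal. The linear model described under processing estimated each difference with the set as a further term, and a probe set is called changed at a limma Benjamini-Hochberg adjusted p under 0.05 over all 45037 probe sets. Errors are standard errors of this fit with 2 arrays per group. Levels of different probe sets are not compared in detail, since each binds its target with its own strength. Percentiles and words such as dim or brightest are a rough guide only.

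The arrays fell apart mainly by set and then by oxygen, along principal components that held 49.7% and 25.7% of the variance. All 9 fibroblast markers lay above the 75th percentile of probe sets, against 1 of 12 endothelial, 2 of 10 macrophage, 1 of 8 neural and 0 of 6 epithelial markers. Egln2, the targeted gene, read 8.85 and 8.66 in hypoxic KO and 9.13 and 8.95 in hypoxic WT cells, and 8.34 and 8.0 in normoxic KO and 9.07 and 8.84 in normoxic WT cells. It was lower in KO in 4 of 4 pairs of the same set and oxygen condition, by 0.54 ± 0.066 over both conditions (limma adjusted p = 0.0531). Signal remained in KO cells, and no source used here places the probe set inside or outside the deletion.

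The first comparison asked whether hypoxia changes the mRNA of the HIF subunits. Over both genotypes, 3 of the 20 probe sets fell and none rose. They belonged to Epas1, Arnt and Arnt2, and no Hif1a or Hif3a probe set was called. Of all probe sets 15.8% were called in this comparison and 8.31% were called lower, so 3 of 20 (15%) is near the background and is no result about the subunits as a group. The median change of the 20 was -0.10, against 0.0025 over all probe sets.

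Epas1 had the largest difference. By 1435436_at, hypoxic KO cells read 7.43 in the second and 7.53 in the first set and hypoxic WT cells 7.47 and 7.16, against 8.77 and 8.17 in normoxic KO cells and 8.77 and 7.50 in normoxic WT cells. Hypoxic arrays were lower in 4 of 4 pairs of the same set and genotype, although the highest hypoxic array, KO of the first set, lay just above the lowest normoxic array, WT of the first set. The change was -0.91 ± 0.19 (95% interval -1.33 to -0.48, limma adjusted p = 0.0129), a signal 1.87-fold lower in hypoxia.

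The fall of Epas1 was of unequal size in the sets. It was -1.32 in the second set, with -1.34 in KO and -1.30 in WT, and -0.49 in the first set, with -0.64 in KO and -0.34 in WT. The difference between the sets of -0.83 ± 0.25 did not pass (limma adjusted p = 0.462). The 4 hypoxic arrays lay between 7.16 and 7.53 in both sets, whereas the normoxic arrays spread from 7.50 to 8.77. By group mean, normoxic KO (8.47) and normoxic WT (8.14) came first, then hypoxic KO (7.48) and hypoxic WT (7.32). The genotypes were not called as different in either condition.

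The other Epas1 probe set, 1449888_at, gave a smaller difference. It read 5.08 in both hypoxic KO arrays and 4.81 and 5.39 in the second and first hypoxic WT arrays, against 5.32 and 5.13 in normoxic KO and 5.46 and 5.28 in normoxic WT cells. The ranges overlapped, and 3 of 4 pairs were lower in hypoxia. Its change of -0.21 ± 0.15 was not called (limma adjusted p = 0.433), with a 95% interval of -0.55 to 0.13.

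Markers of cell types known to express Epas1 were read beside it. The summed signal of 12 endothelial markers was between 9.00 and 9.69 in hypoxic and between 9.30 and 9.81 in normoxic arrays on the log2 scale, with Flt1 called lower in hypoxia (-0.37 ± 0.082, limma adjusted p = 0.0183) and the other 11 not called. Of the 12, only 4 had a negative estimate, and the median change was 0.07. Their summed signal was lower in hypoxia in 3 of 4 pairs of the same set and genotype. That of 10 macrophage markers was between 9.18 and 11.33 in hypoxic and between 9.34 and 11.84 in normoxic arrays, with Lyz2 called lower (-0.36 ± 0.072, limma adjusted p = 0.0117) and the other 9 not called. Of the 10, 8 had a negative estimate, with a median of -0.29. By limma 4 of the 10 had an unadjusted p under 0.05, against 28.1% of all probe sets, a share not counted with 1 probe set per gene. In WT cells alone 2 of the 10 were called lower, and in KO cells 0, against 16.4% and 10.1% of genes with 1 probe set per gene. The macrophage sum was lower in hypoxia in 4 of 4 pairs, as Epas1 was. The fibroblast sum was also lower in 4 of 4 pairs, between 16.12 and 16.38 in hypoxic and between 16.24 and 16.41 in normoxic arrays, with 0 of 9 called and 1 of 9 at an unadjusted p under 0.05 by limma. Of 6 epithelial markers Epcam was called lower (-0.41 ± 0.11, limma adjusted p = 0.0331). The other 5 were not called, 3 of the 6 had a negative estimate, and the median was -0.005. With 1 probe set per gene 28.7% of genes were called over both genotypes, so the calls in these lists are no result about them. The values of these arrays have no 0, so none of these markers can be called absent. Their part in the Epas1 difference was not tested, and in bulk RNA fewer cells of a type and less RNA per cell cannot be told apart. The arrays' own RNA quality controls moved with oxygen too. The log2 signal at the 3′ end minus that at the 5′ end was higher with hypoxia in all 4 pairs, by 0.10 to 0.17 for Actb and by 0.04 to 0.33 for Gapdh, and the part of this in the subunit differences was not tested.

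**Figure D1:**
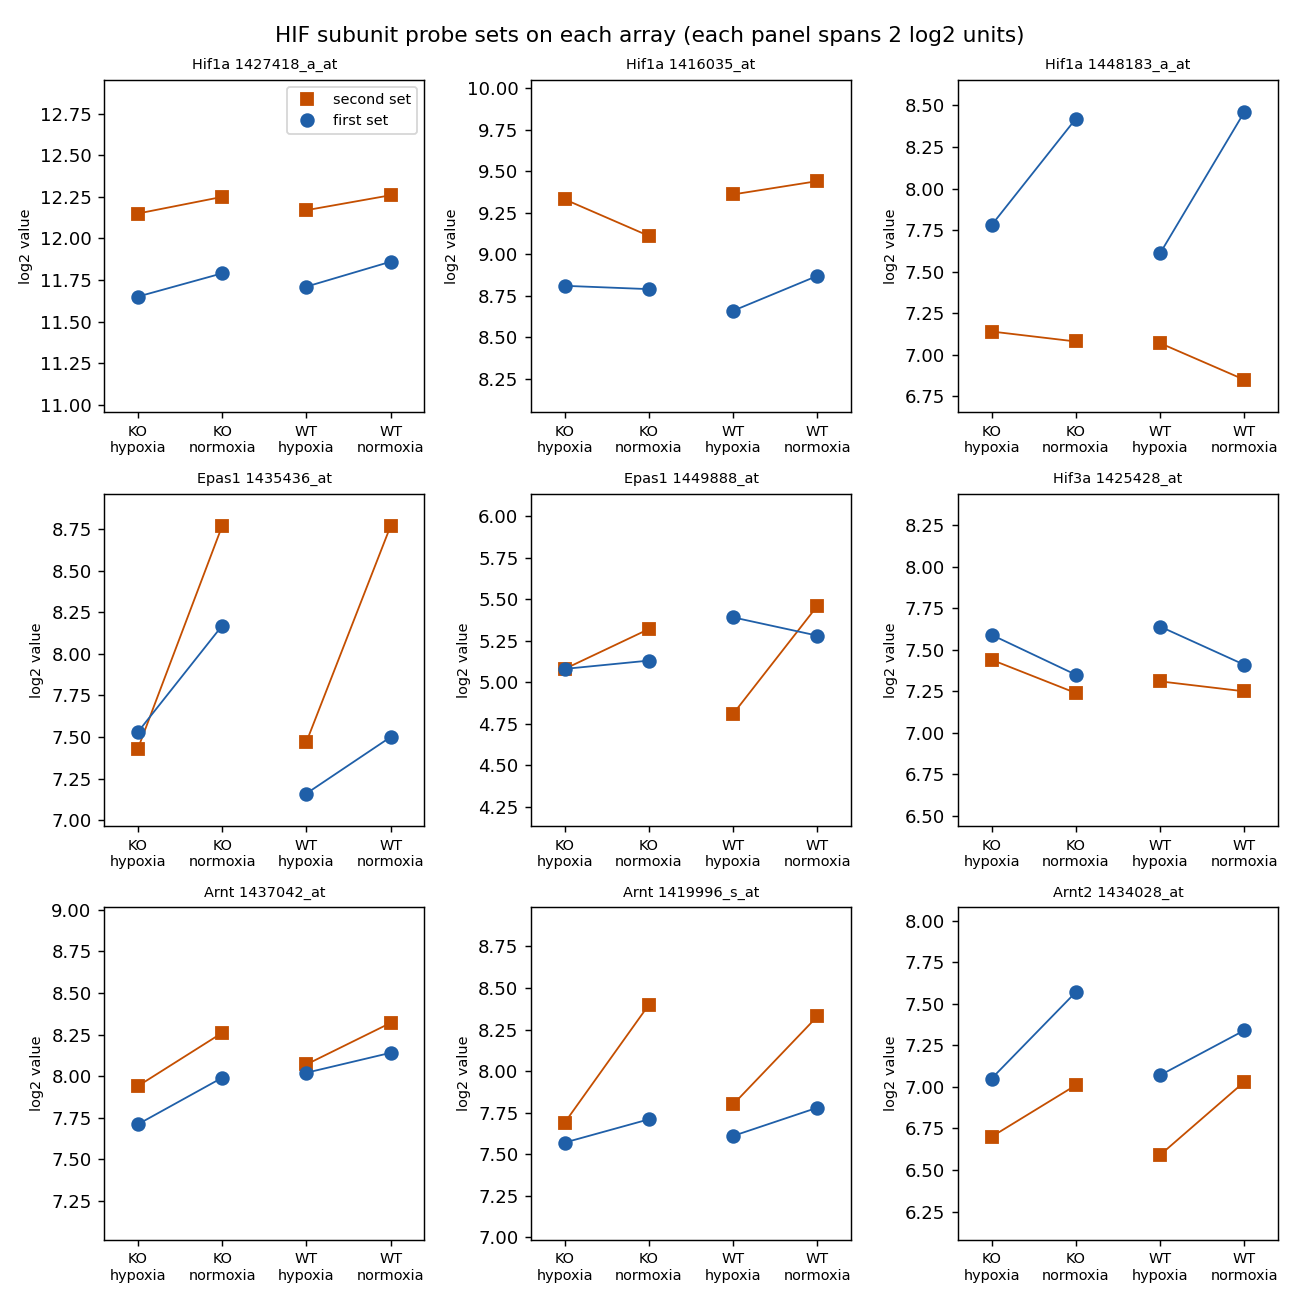
Log2 value (y axis, each panel 2 log2 units high) of 9 HIF subunit probe sets on each of the 8 arrays, by group on the x axis, with squares for the second and circles for the first set and lines joining hypoxia and normoxia of a set and genotype. Epas1 1435436_at is lower in hypoxia in all 4 pairs, and Hif1a 1448183_a_at is lower in the second set while the other 2 Hif1a panels are higher there.

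Hif1a, the alpha subunit of the general hypoxia response, was not called by any of its 4 probe sets. By 1427418_a_at it read 12.15 and 11.65 in the second and first hypoxic KO arrays and 12.17 and 11.71 in hypoxic WT, against 12.25 and 11.79 in normoxic KO and 12.26 and 11.86 in normoxic WT. The 4 pairs of the same set and genotype were all lower in hypoxia, by 0.09 to 0.15. The change of -0.12 ± 0.041 (95% interval -0.21 to -0.03) had an unadjusted p of 0.0185 and a limma adjusted p of 0.0898.

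The probe set 1416035_at of Hif1a lay between 8.66 and 9.36 in hypoxia and between 8.79 and 9.44 in normoxia, with a change of -0.01 ± 0.076. Another, 1448183_a_at, was lower in hypoxia in the first set but not in the second. In the first set it read 7.78 in hypoxic KO and 7.61 in hypoxic WT, against 8.42 in normoxic KO and 8.46 in normoxic WT cells. In the second set it read 7.14 in hypoxic KO and 7.07 in hypoxic WT, against 7.08 in normoxic KO and 6.85 in normoxic WT cells. The change with hypoxia was thus 0.14 in the second and -0.75 in the first set, a difference of 0.89 ± 0.16 that did not pass (limma adjusted p = 0.292). The last one, 1431981_at, was dim, lay between 3.73 and 4.74 in hypoxia and between 3.64 and 3.98 in normoxia, and was not called (0.45 ± 0.21, limma adjusted p = 0.213).

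Hif3a, whose isoforms include inhibitors of the other alpha subunits, had 6 probe sets and no call. Its brightest, 1425428_at, read 7.44 and 7.59 in the second and first hypoxic KO arrays and 7.31 and 7.64 in hypoxic WT, against 7.24 and 7.35 in normoxic KO and 7.25 and 7.41 in normoxic WT. It was higher in hypoxia in 4 of 4 pairs, by 0.06 to 0.24, and the ranges of the groups overlapped across sets. The change of 0.18 ± 0.081 (95% interval -0.0023 to 0.37) was not called (limma adjusted p = 0.183). The other 5 lay between -0.19 and 0.16, and 2 of the 6 had means below the 25th percentile of all probe sets.

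The beta subunits also had called probe sets that were lower in hypoxia. Arnt 1419996_s_at read 7.69 and 7.57 in the second and first hypoxic KO arrays and 7.80 and 7.61 in hypoxic WT, against 8.40 and 7.71 in normoxic KO and 8.33 and 7.78 in normoxic WT. Within each set all hypoxic arrays were lower than all normoxic arrays, and the share of all probe sets separated in this way was not counted. The change was -0.39 ± 0.11 (limma adjusted p = 0.0444), with -0.62 in the second and -0.16 in the first set. The suffix of this probe set marks probes that match several transcripts, which can belong to other genes, so its values are uncertain for Arnt. The annotation gives the same source sequence for Arnt 1449696_at, whose estimate of 0.11 ± 0.11 had the other sign and was not called.

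The Arnt probe set 1437042_at read 7.94 and 7.71 in hypoxic KO and 8.07 and 8.02 in hypoxic WT cells, against 8.26 and 7.99 in normoxic KO and 8.32 and 8.14 in normoxic WT cells. All 4 pairs were lower in hypoxia, by 0.12 to 0.32, which gave -0.24 ± 0.074 (95% interval -0.41 to -0.07). It was not called over all probe sets (limma adjusted p = 0.0607) and was called where dim probe sets were left out (limma adjusted p = 0.0478) or 1 probe set per gene was tested (limma adjusted p = 0.0356). Arnt 1425064_at, a dimmer one, lay between 4.23 and 4.51 in hypoxia and between 4.56 and 5.02 in normoxia with no overlap, a separation that 11.2% of all probe sets showed. Its change of -0.40 ± 0.13 was not called either (limma adjusted p = 0.0803).

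Of the 2 remaining Arnt probe sets, 1421721_a_at differed by -0.0025 ± 0.15 and 1449696_at by 0.11 ± 0.11. Both had hypoxic and normoxic arrays that overlapped. In all, 4 of the 5 Arnt probe sets had a negative estimate and 1 was called.

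Arnt2 1434028_at read 6.70 and 7.05 in the second and first hypoxic KO arrays and 6.59 and 7.07 in hypoxic WT, against 7.01 and 7.57 in normoxic KO and 7.03 and 7.34 in normoxic WT. It was lower in hypoxia in 4 of 4 pairs, by 0.27 to 0.52, and by similar amounts in the second (-0.38) and the first set (-0.40). The change was -0.39 ± 0.087 (95% interval -0.58 to -0.19, limma adjusted p = 0.0191). Its order of group means was normoxic KO (7.29), normoxic WT (7.19), hypoxic KO (6.88) and hypoxic WT (6.83). The genotypes were not called as different in either condition.

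The dimmer Arnt2 probe sets were not called. 1420670_at lay between 3.43 and 3.56 in hypoxia and between 3.60 and 3.75 in normoxia (-0.22 ± 0.094, limma adjusted p = 0.178), and its mean was below the 25th percentile of all probe sets. 1420669_at differed by -0.06 ± 0.13. Of 8 neural markers, Stmn2 (0.67 ± 0.093) and Nefl (1.16 ± 0.29) were called higher and Map2 (-0.61 ± 0.13) lower in hypoxia. With 1 probe set per gene 28.7% of genes were called, so these calls are near the background and no result about the list. The summed signal of the 8 was between 9.12 and 9.93 in hypoxic and between 8.99 and 9.36 in normoxic arrays on the log2 scale. It was higher in hypoxia in 4 of 4 pairs. The part of these markers in the Arnt2 difference was not tested.

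**Figure D2:**
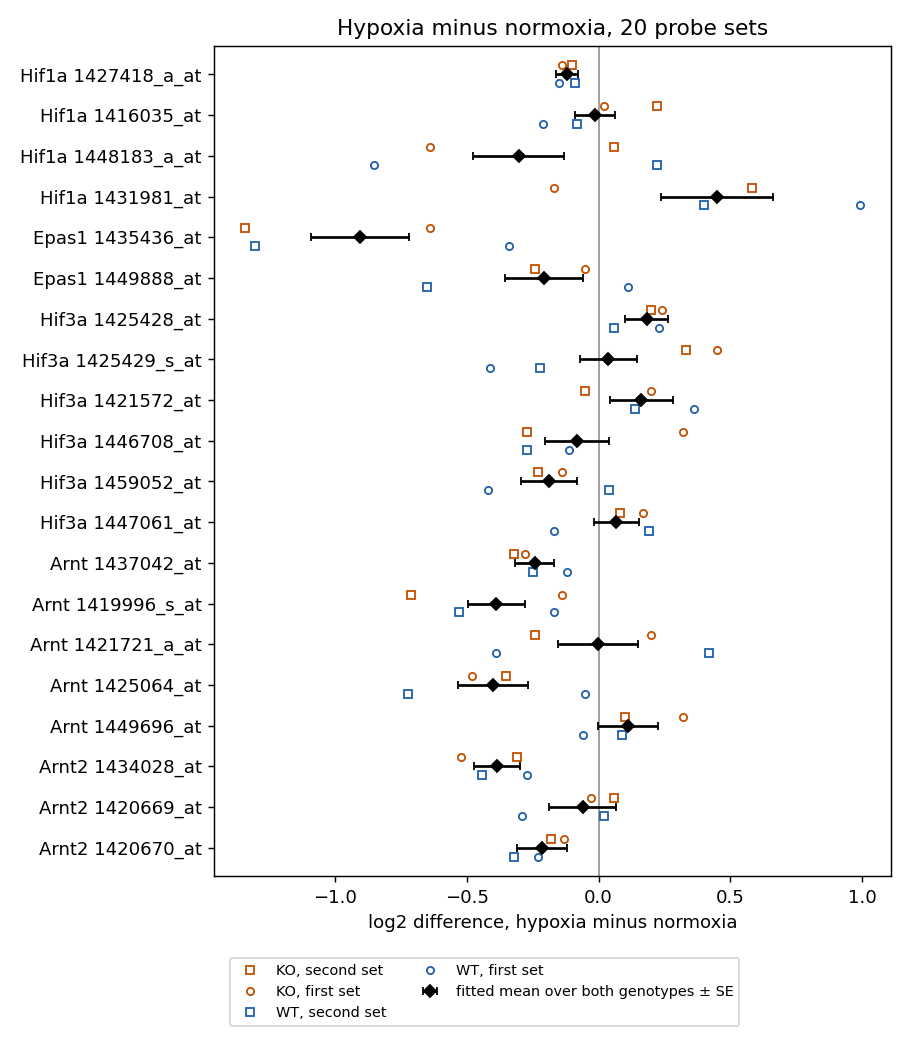
Hypoxia minus normoxia (x axis, log2) for the 20 probe sets (rows): open symbols give each pair of arrays of a set and genotype, and black diamonds the fitted mean over both genotypes with its standard error. The largest value is the -0.91 of Epas1 1435436_at, and the 6 Hif3a probe sets lie between -0.19 and 0.18.

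Within a genotype, limma called none of the 20 probe sets. Of all probe sets limma called 4.67% in KO and 7.29% in WT cells. At an unadjusted p under 0.05 there were 5 of the 20 in KO cells, against 19.2% of all probe sets, and 3 of the 20 in WT cells, against 21.2%, so both shares are near the background. Epas1 1435436_at differed by -0.99 ± 0.26 in KO (limma adjusted p = 0.0761) and by -0.82 ± 0.26 in WT (limma adjusted p = 0.107). Arnt2 1434028_at differed by -0.42 ± 0.12 in KO (limma adjusted p = 0.103) and by -0.36 ± 0.12 in WT (limma adjusted p = 0.133). The 2 responses share no array, and their difference is the interaction of genotype and oxygen.

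These calls rest on the set being in the model. The called probe sets numbered 0 of 20 without the set term, where Epas1 had a limma adjusted p of 0.286, Arnt 1419996_s_at of 0.508 and Arnt2 of 0.502. They also numbered 0 with the set as a random block, where Epas1 had a limma adjusted p of 0.0526. The Epas1 call was kept in 7 of 8 fits without 1 array, with values from -1.16 to -0.66, and was lost without KO hypoxia of the second set (-0.70, limma adjusted p = 0.0513). The calls of Arnt 1419996_s_at and of Arnt2 were each kept in 2 of 8. Arnt 1419996_s_at lost its call without any 1 of the 2 WT hypoxia, 2 WT normoxia, KO normoxia second set or KO hypoxia second set arrays, with values from -0.45 to -0.29. Arnt2 lost it without any array other than WT normoxia of the first and KO normoxia of the second set, with values from -0.41 to -0.34.

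The second comparison asked whether the loss of Hif-p4h-1 changes HIF subunit mRNA. No probe set of the 20 was called between KO and WT cells over both oxygen conditions, in hypoxia or in normoxia, by limma. At an unadjusted p under 0.05 there were 0 over both conditions, 0 in hypoxia and 1 in normoxia, Hif3a 1425429_s_at. Across the array 0.04% of probe sets were called over both conditions, 0% in hypoxia (2085 at an unadjusted p under 0.05) and 0.00666% in normoxia. KO and WT arrays overlapped for all 20 probe sets, whereas they did not for 1.29% of all probe sets.

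Over both conditions they lay between -0.17 and 0.25, with standard errors from 0.041 to 0.21, and all 20 intervals excluded a change of 1 on the log2 scale. Hif1a 1427418_a_at differed by -0.04 ± 0.041 (95% interval -0.13 to 0.05). It was lower in KO in 4 of 4 pairs of the same set and oxygen condition, by 0.01 to 0.07. Arnt 1437042_at differed by -0.16 ± 0.074 (95% interval -0.33 to 0.0068, limma adjusted p = 0.794) and was also lower in KO in 4 of 4 pairs, by 0.06 to 0.31.

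Epas1 1435436_at had the largest estimate between genotypes, 0.25 ± 0.19 (95% interval -0.18 to 0.68, limma adjusted p = 0.888). The difference was 0.37 in hypoxia and 0.67 in normoxia in the first set, and -0.04 in hypoxia and 0.00 in normoxia in the second. The other Epas1 probe set ran the other way, at -0.08 ± 0.15. For Arnt2 1434028_at the difference was 0.08 ± 0.087, and for Hif3a 1425428_at it was 0.0025 ± 0.081.

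Macrophage markers and a fibroblast marker differed between the genotypes. With 1 probe set per gene, 0.256% of genes were called between KO and WT over both conditions. Of 9 fibroblast markers Pdgfra was called lower in KO (-0.72 ± 0.069, limma adjusted p = 0.0221), and Dcn was at -0.51 ± 0.064 (limma adjusted p = 0.0565). The macrophage markers' summed signal was between 9.18 and 10.10 in KO and between 10.07 and 11.84 in WT arrays on the log2 scale, and all 10 had negative estimates with a median of -1.28, of which Lyz2 (-1.19 ± 0.072) and Csf1r (-1.37 ± 0.14) were called. It was lower in KO in 4 of 4 pairs of the same set and oxygen condition. The endothelial sum was between 9.00 and 9.60 in KO and between 9.25 and 9.81 in WT arrays, lower in KO in 4 of 4 pairs. Of the 12 endothelial markers only 5 had a negative estimate, the median was 0.0063, and limma called 0. The 2 at an unadjusted p under 0.05 went in opposite directions, Flt1 (-0.47 ± 0.082) and Vwf (0.27 ± 0.12). The epithelial sum was between 8.30 and 8.59 in KO and between 8.84 and 8.93 in WT arrays, with 0 of 6 called by limma and 2 of 6 at an unadjusted p under 0.05. The part of these markers in the subunit values was not tested.

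**Figure D3:**
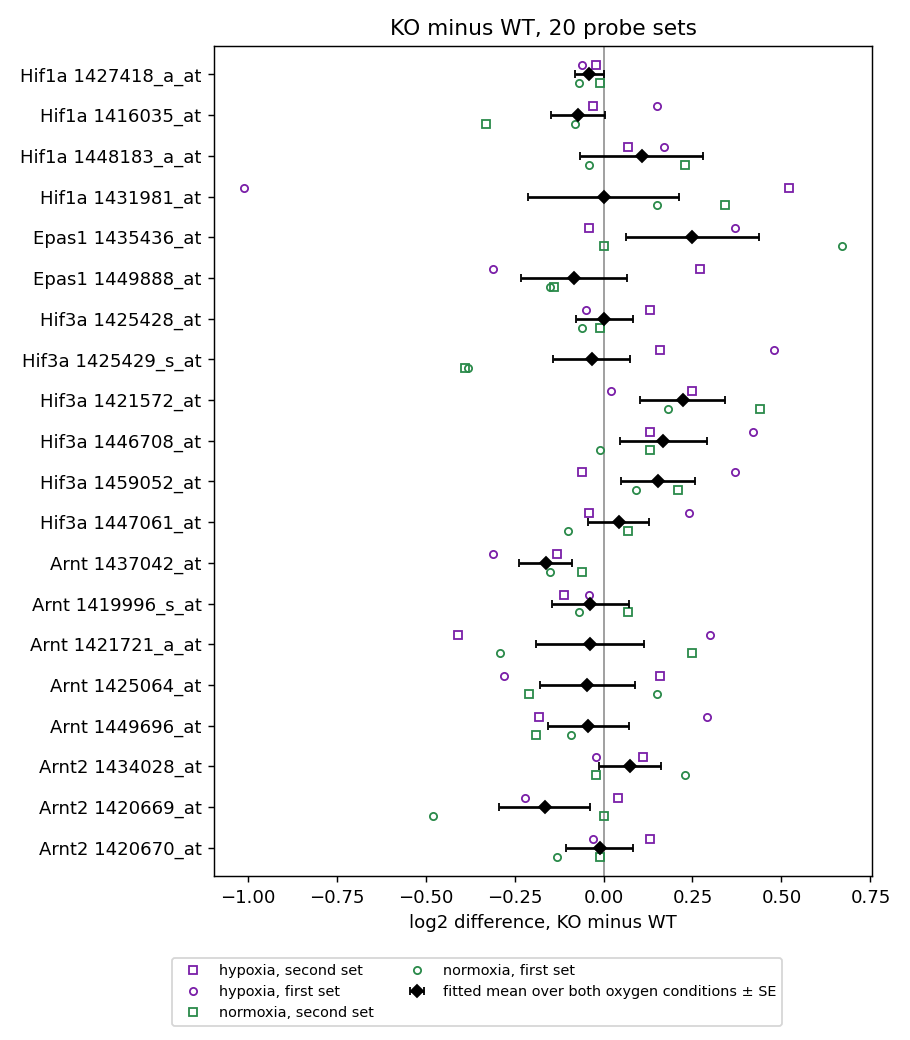
KO minus WT (x axis, log2) for the 20 probe sets (rows): open symbols give each pair of arrays of a set and oxygen condition, and black diamonds the fitted mean over both conditions with its standard error. Fitted means lie between -0.17 and 0.25, and none was called.

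The third comparison asked whether the hypoxia response differs between the genotypes. The interaction, the hypoxia change in KO minus that in WT, was called for 0 of 20 probe sets and for 0% of all probe sets by limma (1279 at an unadjusted p under 0.05), and 1 of 20 had an unadjusted p under 0.05. Its error is larger than that of the other contrasts, from 0.082 to 0.43. For Epas1 1435436_at it was -0.17 ± 0.37, for Arnt2 1434028_at -0.06 ± 0.17 and for Hif1a 1427418_a_at 0.00 ± 0.082 on the log2 scale. For 17 of the 20 the interval excluded an interaction of 1 on the log2 scale.

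The fourth comparison set the second against the first set of arrays. The labels do not say what the sets are. In it 5 of 20 probe sets were called, against 27.2% of all probe sets, so the share is near the background. Hif1a 1427418_a_at was higher in the second set by 0.46 ± 0.041 (limma adjusted p = 1.4e-04), with arrays between 12.15 and 12.26 in the second and between 11.65 and 11.86 in the first set. Hif1a 1416035_at was higher by 0.53 ± 0.076 (limma adjusted p = 0.00126), with arrays between 9.11 and 9.44 in the second and between 8.66 and 8.87 in the first. In both cases the sets did not overlap, which held for 21.4% of all probe sets.

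Hif1a 1448183_a_at differed in the opposite direction. It was lower in the second set by 1.03 ± 0.17 (limma adjusted p = 0.00273), with arrays between 6.85 and 7.14 in the second and between 7.61 and 8.46 in the first. The group differences were -0.64 in hypoxic KO and -0.54 in hypoxic WT cells, and -1.34 in normoxic KO and -1.61 in normoxic WT cells. The suffix of this probe set, shared with 1427418_a_at, marks probes common to alternative transcripts of a gene. The arrays' 3′ minus 5′ difference of Actb was between 0.31 and 0.47 in the second and between 0.53 and 0.73 in the first set, and that of Gapdh between 0.14 and 0.47 in the second and between 0.33 and 0.52 in the first set. Their part in the disagreement of the Hif1a probe sets was not tested.

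Arnt 1419996_s_at was higher in the second set by 0.39 ± 0.11 (limma adjusted p = 0.0288), a call kept in 4 of 8 fits without 1 array and lost without any normoxic array (0.29 to 0.33). Arnt 1449696_at, of the same source sequence, had the other sign and was not called (-0.24 ± 0.11, limma adjusted p = 0.168). Arnt2 1434028_at was lower by 0.43 ± 0.087 (limma adjusted p = 0.00711), with arrays between 6.59 and 7.03 in the second and between 7.05 and 7.57 in the first set. Epas1 1435436_at was not called (0.52 ± 0.19, limma adjusted p = 0.0728), with -0.10 in hypoxic KO, 0.31 in hypoxic WT, 0.60 in normoxic KO and 1.27 in normoxic WT cells. Without either hypoxic KO array it was called (0.73, limma adjusted p = 0.0226 and 0.0227). Markers were read between the sets too, where 27.2% of all probe sets were called, and 46.1% with 1 probe set per gene. The shares called of the endothelial, neural and epithelial markers are near or below the latter and are no result about these lists. Of 9 fibroblast markers Pdgfrb (0.58 ± 0.056), Thy1, Dcn, Fn1 and Col1a1 were called higher in the second set and Pdgfra (-0.92 ± 0.069) lower, and their sum was between 16.25 and 16.41 in the second and between 16.12 and 16.26 in the first set on the log2 scale. Of 6 epithelial markers Krt8 was called higher (0.68 ± 0.10), while 4 of the 6 had a negative estimate and the median was -0.05. Of 12 endothelial markers Flt1, Kdr, Tek and Plvap were called lower in the second set, and their sum was between 9.00 and 9.40 in the second and between 9.53 and 9.81 in the first set on the log2 scale. Of 10 macrophage markers 8 were called lower, with sums between 9.18 and 10.33 in the second and between 10.03 and 11.84 in the first set. Of 8 neural markers Tubb3 was called higher and Stmn2, Map2 and Nefl lower, with sums between 8.99 and 9.22 in the second and between 9.28 and 9.93 in the first set. Their part in the subunit differences was not tested.

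**Figure D4:**
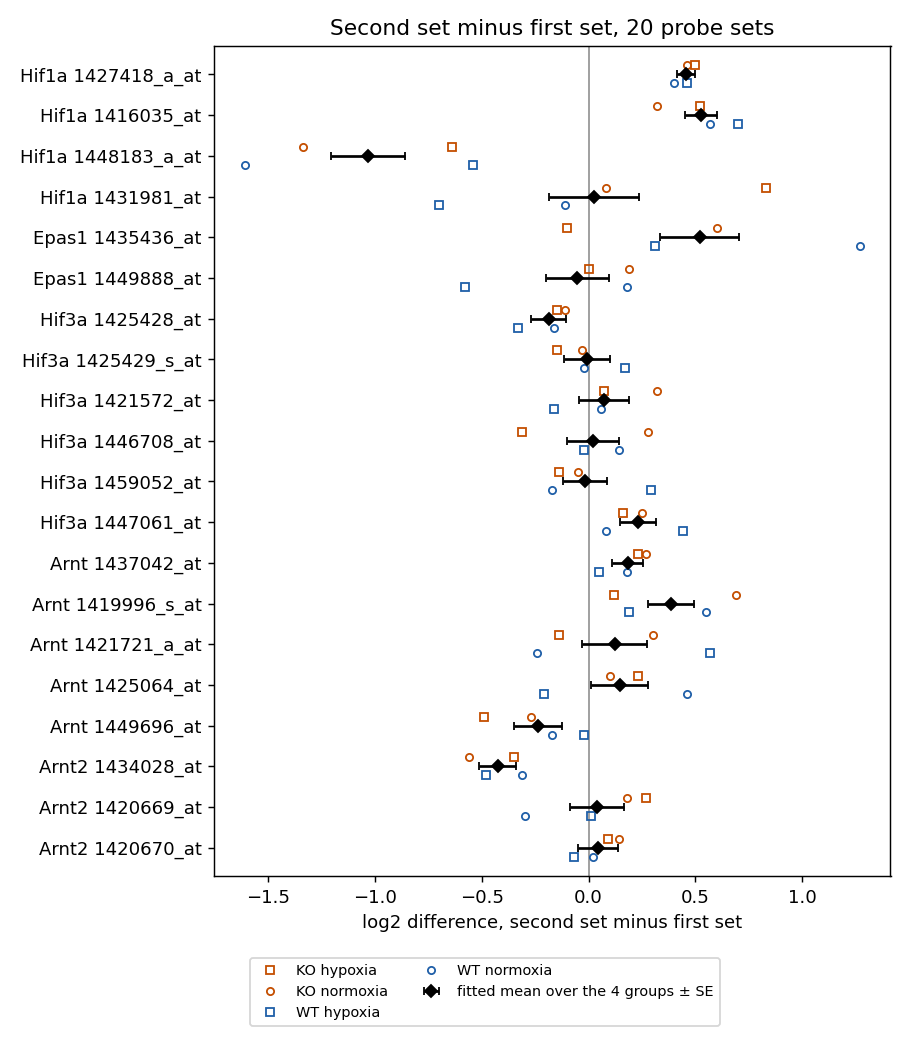
Second set minus first set (x axis, log2) for the 20 probe sets (rows): open symbols give each group's pair of arrays and black diamonds the fitted mean over the 4 groups with its standard error. Hif1a 1427418_a_at and 1416035_at lie at 0.46 and 0.53 and Hif1a 1448183_a_at at -1.03.

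Other genes of the pathway, each read by its probe set of highest mean, give the setting of these values. With 1 probe set per gene, 28.7% of the 13647 genes above the 25th percentile were called with hypoxia over both genotypes. Shares at an unadjusted p under 0.05 are over all probe sets, dim ones included. They were not counted with 1 probe set per gene, so they are an unlike background for these lists. Of 16 HIF target genes 15 were read, and in hypoxia over both genotypes 15 of 15 rose, with a median change of 1.05. Bnip3, a mitophagy receptor, rose by 3.50 ± 0.060, Pdk1, which closes the pyruvate dehydrogenase step, by 3.35 ± 0.072, and Slc2a1, a glucose transporter, by 1.69 ± 0.045 (limma adjusted p = 1.3e-07, 2.8e-07 and 9.1e-07). In WT 15 of 15 were called higher, and in KO 13 of 15, all but Vegfa and Adm. In KO 0 of 15 had a negative estimate, and all 15 had an unadjusted p under 0.05 by limma. Between KO and WT limma called 0 of 15 in either oxygen condition. In hypoxia their median difference was -0.07, with 1 of 15 at an unadjusted p under 0.05, and in normoxia it was 0.31, with 11 of 15. In each of these conditions 4.63% of all probe sets had such a p. The interaction of genotype and oxygen was called by limma for 0 of the 15 targets. Its estimate was negative for 13 of 15, with a median of -0.375, and 9 of 15 had an unadjusted p under 0.05, against 2.84% of all probe sets.

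Genes that set the stability of the alpha subunits changed in both directions with hypoxia. Of 13 genes read out of 15 listed, 5 rose, 3 fell and 5 were not called, with a median of -0.07. Egln1, the main HIF prolyl hydroxylase, rose by 1.19 ± 0.071, Egln3, another of them, by 3.25 ± 0.20, and Hsp90aa1, a chaperone of HIF-1 alpha, by 0.31 ± 0.042 (limma adjusted p = 6.7e-05, 7.6e-05 and 0.00211). Siah2 (0.32 ± 0.087), a ubiquitin ligase of the hydroxylases, also rose. Egln2 rose by 0.34 ± 0.066, with 0.59 ± 0.093 in KO cells, where it is the targeted gene (limma adjusted p = 0.0148), and 0.09 ± 0.093 in WT cells, where it was not called (limma adjusted p = 0.681). The interaction of these 2 values, 0.50 ± 0.13, had an unadjusted p of 0.0047 by limma. It was not called (limma adjusted p = 0.998). Rbx1 (-0.62 ± 0.14) and Eloc (-0.17 ± 0.043), subunits of the von Hippel-Lindau ligase, and Siah1a (-0.24 ± 0.063), a relative of Siah2, fell. Of 11 coactivators and competitors of HIF, 4 rose, 1 fell and 6 were not called, with a median of 0.16. Pkm, a pyruvate kinase of glycolysis that also acts as a HIF coactivator, rose by 1.20 ± 0.078, Cited2, which competes with HIF for its coactivators, by 0.53 ± 0.051, and Cdk8, a kinase of the Mediator complex, fell by 0.34 ± 0.049 (limma adjusted p = 1.1e-04, 5.5e-04 and 0.00278). The coactivator acetyltransferases Ep300 (0.53 ± 0.10) and Crebbp (0.33 ± 0.065) rose too. Between genotypes over both conditions limma called 0 of these 13 and 0 of these 11 genes, with 1 of the 13 and 4 of the 11 at an unadjusted p under 0.05, against 6.45% of all probe sets.

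Other factors of the bHLH-PAS family, to which all 5 subunit genes belong, were read as well. Of 10 read out of 11 listed, 2 were called lower with hypoxia and 8 were not called, with a median of 0.13. With 1 probe set per gene, as read here, 28.7% were called, so 2 of 10 is no result about this family. Clock, a partner in the circadian clock, fell by 0.47 ± 0.072 (limma adjusted p = 0.00371) and Npas4, an activity-induced neuronal factor, by 1.02 ± 0.21 (limma adjusted p = 0.0125). Npas3 differed by 0.37 ± 0.13 and was not called (limma adjusted p = 0.0969). Of 8 genes often described as HIF-2 targets 6 were read, and limma called none with hypoxia, against the same 28.7%. None had an unadjusted p under 0.05, against 28.1% of all probe sets, a share not counted with 1 probe set per gene. The median was 0.025. Ccnd1, a G1 cyclin, differed by 0.07 ± 0.045, Mmp14, a membrane-bound matrix protease, by 0.06 ± 0.046 and Slc11a2, an iron transporter, by -0.09 ± 0.079.

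The genes with the pattern most like that of a called subunit were sought over the 8 arrays after the mean of each set was subtracted. Among 28130 named probe sets, Epas1 1435436_at was closest to Vamp3, a vesicle fusion protein (r = 0.995), Cox20, an assembly factor of cytochrome c oxidase (r = 0.992), and Tmem70, an assembly factor of respiratory complexes (r = 0.991). Their changes with hypoxia were -0.71, -0.23 and -0.29. Arnt2 1434028_at was closest to Ppp1r2, a phosphatase inhibitor (r = 0.997), Actr3, of the actin-nucleating complex (r = 0.993), and Dpysl4, of the collapsin response family (r = 0.991), whose changes were -0.13, -0.17 and -0.36. These correlations were the highest of many over 8 arrays that share their sets, and they are descriptions.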

How the data were processed

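RNA of 8 fibroblast samples was measured on one-colour Affymetrix arrays. The deposited table holds 1 log2 value per probe set and array, which per the submitters' processing notes the authors made with RMA. RMA gives arrays a common distribution, so a change shared by all transcripts is not visible. That the scale is log2 was judged from the values (2.09 to 14.71), and whether the arrays were normalized together is not stated in the labels. The number of arrays limits the precision.

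Control probe sets (64) were left out. Of the rest, 34945 had 1 gene symbol, 932 several and 9160 were not listed. Symbols were updated through Entrez identifiers, of which 34741 were found in a RefSeq table of GRCm38.p6. R 4.3.3 and limma 3.58.1 fitted group means and the set to all 8 arrays, with no filter, then eBayes with a trend and two-sided tests (3 residual degrees of freedom, plus 5.41 from moderation). The fit was tested on simulated data. Pairing by set comes from the titles, and second minus first set differences of the groups correlated between 0.535 and 0.728. Set by oxygen and set by genotype terms were added after seeing the values.

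Named genes are all probe sets of the 5 genes, Egln2, at most 3 members per pathway list by smallest adjusted p for hypoxia, and the 3 closest patterns to each gene whose brightest probe set was called. Markers and further list members were named after their values were seen. Members and lists were chosen with earlier results of these data known.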

Additional observations from a re-analysis of the deposited data

How the results depend on the processing

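The alternatives were a fit without the set term, the set as a random block, a filter at the 25th percentile, 1 probe set per gene, only the 4 arrays compared, eBayes without trend or made robust, repeated quantile normalization, and each array left out. Called subunit probe sets for hypoxia over both genotypes numbered 3 in the reported fit, 0 without the set in the model (no replicate block), 0 with it as a random replicate block, and 0 to 3 without 1 array, with 0 without KO hypoxia replicate 2. For hypoxia in KO they numbered 0 in the reported fit and 0 to 1 without 1 array, the 1 being Epas1 1435436_at without either WT normoxia array (limma adjusted p = 0.0414 and 0.0424). For hypoxia over both genotypes they numbered 2 of 20 without trend, where Arnt 1419996_s_at lost its call (limma adjusted p = 0.0819). With the filter they numbered 4 of 17, against 22.6% of all probe sets kept. With 1 probe set per gene they numbered 3 of 5, against 28.7% of genes. Made robust or with repeated quantile normalization they numbered 3. For the second against the first set they numbered 5, against 2 with 1 probe set per gene, where only 5 subunit probe sets can enter. Counts for genotype and for the interaction were 0 in each alternative run for them, and no called change turned its sign where it was refitted. The fit of only the 4 arrays compared was run for hypoxia within a genotype and for genotype within a condition. Over all probe sets, hypoxia over both genotypes gave 7117 calls, 113 without the set term, 2773 with it as a random block and 3921 with 1 probe set per gene. In the same order it gave 2104, 14, 148 and 1380 in KO and 3282, 24, 375 and 2236 in WT, and with only the 4 arrays compared 24 in KO and 148 in WT. Without trend it gave 5028 over both genotypes, 420 in KO and 1261 in WT. Without 1 array the range was 3871 to 6763 over both genotypes (lowest without KO hypoxia replicate 2), 101 to 2450 in KO (lowest without the same array) and 353 to 2728 in WT (lowest without WT normoxia replicate 1). The KO against WT count over both conditions was 18 in the reported fit and, in the same order, 0, 0 and 35, with 3 without trend and 1 to 13 without 1 array. The 3 subunit probe sets below the 25th percentile of signal are the least certain.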

Other observations

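A minor Hif3a probe set, 1425429_s_at, read 5.45 and 5.60 in the second and first hypoxic KO arrays and 5.29 and 5.12 in hypoxic WT, against 5.12 and 5.15 in normoxic KO and 5.51 and 5.53 in normoxic WT. It was thus higher with hypoxia in KO (0.33 and 0.45) and lower in WT (-0.22 and -0.41) in both sets. The interaction of 0.71 ± 0.22 had an unadjusted p of 0.0108 and did not pass over all probe sets (limma adjusted p = 0.998). The other 5 Hif3a probe sets had interactions between -0.18 and 0.22, and were not called. The suffix of 1425429_s_at, like that of Arnt 1419996_s_at, marks probes that can match other genes, so its values are uncertain for Hif3a.

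The dim Hif1a probe set 1431981_at read 4.56 and 3.73 in the second and first hypoxic KO arrays and 4.04 and 4.74 in hypoxic WT, against 3.98 and 3.90 in normoxic KO and 3.64 and 3.75 in normoxic WT. In 3 of 4 pairs it was higher in hypoxia, by 0.40 to 0.99, and in KO of the first set it was lower by 0.17. Its change of 0.45 ± 0.21 was called without KO hypoxia replicate 1 (0.72, limma adjusted p = 0.0438) and without WT hypoxia replicate 2 (0.69, limma adjusted p = 0.0461).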
